A study of Mus musculus with 12 samples.

Results

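The integrated stress response is described here through 10 of its best known genes: Atf4, Atf5, Ddit3, Trib3, Asns, Psat1, Chac1, Sesn2, Fgf21 and Gdf15. The rule that picks them uses their symbols and no measured value, though they were chosen with earlier results of these data known, and all 10 were among the 22552 genes of the deposited RNA-seq table. The mice, of strain C57Bl/6, lacked the lamin B receptor (Lbr), an inner nuclear membrane protein that tethers heterochromatin, or the A-type lamins (Lmna), filament proteins of the nuclear lamina. Homozygous Lbr-knockout (LBR_KO) and Lmna-knockout (LMNA_KO) animals were set against wild-type littermates from heterozygous matings. The material was cultures labelled myoblast, a name for dividing muscle precursor cells, and striated muscle. Of the 12 samples, 6 were myoblasts (2 Lbr-knockout, 1 wild type of the Lbr litter, 2 Lmna-knockout, 1 wild type of the Lmna litter) and 6 were muscle (2 Lbr-knockout, 2 Lmna-knockout, 2 wild type). The table gives a single FPKM value (a read abundance corrected for transcript length and library size) for each of these 7 groups, so no value below has a replicate error. Age, sex, the deleted part of each gene and the origin and passage of the cultures are not stated in the labels.

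In this response, stress-sensing kinases phosphorylate the translation factor eIF2. General protein synthesis then falls while the mRNA of the transcription factor ATF4 is translated more, so that the abundance of Atf4 mRNA is only part of its regulation. ATF4, with partners of the C/EBP family, switches on genes for amino acid synthesis and transport, for glutathione turnover and for feedback on the pathway. In skeletal muscle the response is best known from mitochondrial disease, in which the secreted proteins FGF21 and GDF15 rise.

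ATF4 with a C/EBP partner binds a composite element that can be written TGATGNAA, where N is any base. That motif was searched on both strands of the 300 bases around each start (250 before and 50 after) in the RefSeq promoter table, build GRCm38.p6, to which all 10 genes matched. It was found in 4 of the 10 genes, against 4.51% of the 27025 genes with such a window. The 4 matches are shown with 10 bases on each side, on the strand of the gene, with the motif or its reverse complement in capitals.
Chac1: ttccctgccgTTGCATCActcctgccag
Trib3: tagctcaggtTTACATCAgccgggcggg
Asns: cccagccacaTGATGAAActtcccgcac
Fgf21: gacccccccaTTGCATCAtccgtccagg
The Chac1 window lies at chr2:119351039-119351066 on the plus strand, its match starting at position -193 relative to the gene start. The other windows lie on the minus strand, at chr2:152344029-152344056 for Trib3 (position 14, inside the transcript), chr6:7693215-7693242 for Asns (position -23) and chr7:45615612-45615639 for Fgf21 (position -139). Only the Asns match reads TGATGNAA on the strand of the gene, while the other 3 read it on the opposite strand. These matches describe sequence, not occupied sites, and no match in a window of this length says nothing about binding elsewhere.

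Chac1 was the member with the widest spread between the myoblast columns, and its whole 250 bases before the start are therefore shown as well, from chr2:119350992-119351241 of GRCm38.p6, plus strand, with the same motif in capitals.
Chac1 upstream: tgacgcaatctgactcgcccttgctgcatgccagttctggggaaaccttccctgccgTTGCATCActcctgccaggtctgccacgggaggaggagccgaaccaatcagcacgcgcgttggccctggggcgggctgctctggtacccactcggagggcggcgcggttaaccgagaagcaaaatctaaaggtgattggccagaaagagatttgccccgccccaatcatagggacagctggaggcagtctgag

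The targeted genes were lower in the columns of their knockouts, in part only: the transcripts did not vanish, and whether the deleted part is among the counted sequence is not known. Lbr was at 7.71 FPKM in Lbr-knockout myoblasts, against 16.1 in the wild type from the Lbr litter and 14.7 in that from the Lmna litter, and at 1.87 FPKM in Lbr-knockout muscle, against 11.8 in wild-type muscle. Lmna was at 18.5 FPKM in Lmna-knockout myoblasts, against 147 in the wild type of the Lmna litter and 114 in that of the Lbr litter, and at 22.6 FPKM in Lmna-knockout muscle, against 59.5 in wild-type muscle. The columns held 11315 to 12256 genes at 1 FPKM or more. Depth is not in the table, but the smallest steps of FPKM times length put 1 FPKM of a transcript of 2 kb at about 23.5 to 34 fragments in the myoblast columns and 6.47 to 8.15 in Lbr-knockout and wild-type muscle, with an uncertain 3.72 for Lmna-knockout muscle. The estimate rests on the commonest value of FPKM times length. In the wild type of the Lbr litter that value held 42 genes and the next 42, so this estimate is uncertain too. In wild-type muscle it held 66 genes against 56, and in Lmna-knockout muscle 55 against 48. The myoblast cultures were not uniform. Of the 6 myoblast markers, Des was at 18.7 to 85.2 FPKM and Myod1 at 2.09 to 5.51 in the 4 myoblast columns, Cdh15 was above 1 FPKM only in both columns of the Lbr litter, and Myf5, Pax7 and Msc were below 1 FPKM throughout. The 6 fibroblast markers together summed to 2325 to 2420 FPKM. Macrophage markers, 12 genes with none at 0, summed to 489 FPKM in Lbr-knockout and 446 in Lmna-knockout myoblasts, against 133 in the wild type of the Lbr litter and 538 in that of the Lmna litter. Differentiated muscle markers, 8 genes, summed to 335 FPKM in Lbr-knockout and 57.5 in Lmna-knockout myoblasts, against 107 in the wild type of the Lbr litter and 219 in that of the Lmna litter. The columns also differed in Xist, the non-coding RNA of the inactive female X chromosome, which was at 56.6 FPKM in Lbr-knockout and 22.1 in Lmna-knockout myoblasts, against 0.0057 and 6.67 in the wild types of the Lbr and the Lmna litter, while the Y-linked Ddx3y was at 8 to 21.4 FPKM in all 4 columns. The muscle columns matched their label in the 8 muscle markers, which summed to 50915 to 63460 FPKM, but differed in other genes. Xist was at 11.4 FPKM in Lmna-knockout muscle, against 0.099 in Lbr-knockout and 0.015 in wild-type muscle, with Ddx3y at 16.6 to 27.5 FPKM. The 6 liver markers summed to 15.9 FPKM in Lbr-knockout and 1.03 in Lmna-knockout muscle, against 3.67 in wild-type muscle. The 6 adipocyte markers summed to 722, 618 and 494 FPKM in the same order. The part of these differences in what follows was not tested, and a change in the share of a cell type cannot be told apart from a change of RNA per cell.

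Among the transcription factors, Atf4, the central activator, was at 129 FPKM in Lbr-knockout myoblasts, against 102 in the wild type of that litter. It stood at 192 FPKM in Lmna-knockout myoblasts, against 183 in the wild type of that litter. Both columns of the Lmna litter thus lay above both columns of the Lbr litter, and each knockout lay above its own wild type.
Atf5, a related factor linked to mitochondrial stress, was at 71.8 FPKM in Lbr-knockout and 77.3 in Lmna-knockout myoblasts, against 61.6 and 79.0 in the wild types of the Lbr and the Lmna litter. Ddit3, which encodes CHOP, a factor that promotes cell death under lasting stress, was at 10.4 FPKM in Lbr-knockout and 16.0 in Lmna-knockout myoblasts, against 6.39 in the wild type of the Lbr litter and 14.2 in that of the Lmna litter. Ddit3 followed the order of Atf4, with the wild type of the Lbr litter lowest and the Lmna knockout highest. Trib3, a pseudokinase that restrains ATF4 and CHOP, was at 3.49 FPKM in Lbr-knockout and 6.10 in Lmna-knockout myoblasts, against 3.03 and 6.52 in the wild types of the Lbr and the Lmna litter. Here too both columns of the Lbr litter were the low ones.

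The biosynthetic enzymes were, with Atf5, the most even members, and with Atf4 among the 3 most abundant in myoblasts. Asns, asparagine synthetase, was at 116 FPKM in Lbr-knockout and 136 in Lmna-knockout myoblasts, against 126 and 144 in the wild types of the Lbr and the Lmna litter. Psat1, an aminotransferase of serine synthesis, was at 245 FPKM in Lbr-knockout and 295 in Lmna-knockout myoblasts, against 266 and 295 in the 2 wild types in that order. The highest of the 4 myoblast columns exceeded the lowest by 1.24 times for Asns and 1.2 times for Psat1, against 1.28 times for Atf5 and 1.88 times for Atf4. On the log2(FPKM + 1) scale the span reached 2-fold in 4 of 9 members with a mean of at least 1 FPKM (Chac1, Gdf15, Ddit3 and Sesn2), beside 7.98% of all 11447 genes.

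The effectors of redox and growth control were far less even. Chac1, a glutathione-degrading enzyme, was at 4.11 FPKM in Lbr-knockout myoblasts, against 1.70 in the wild type of that litter, and at 17.3 FPKM in Lmna-knockout myoblasts, against 18.5 in the wild type of that litter. Both columns of the Lbr litter were low and both of the Lmna litter high, a span of 10.9 times. By the fragment estimate these values stand for about 79.0 and 349 fragments in Lbr-knockout and Lmna-knockout myoblasts, against 47.3 and 491 in the wild types of the Lbr and the Lmna litter. The estimate for the wild type of the Lbr litter is uncertain. Sesn2, a sestrin that restrains mTORC1 signalling when leucine is scarce and is also a target of p53, was at 10.5 FPKM in Lbr-knockout and 19.8 in Lmna-knockout myoblasts, against 8.98 and 21.5 in the wild types of the Lbr and the Lmna litter. Its columns fell into the same low and high pairs, with a span of 2.40 times.

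Of the secreted members, Gdf15, a TGF-beta family hormone that lowers appetite and is likewise known as a p53 target, was at 3.66 FPKM in Lbr-knockout myoblasts, against 2.62 in the wild type of that litter. In Lmna-knockout myoblasts it reached 20.3 FPKM, against 11.8 in the wild type of that litter, and the span of the 4 columns was 7.75 times. Fgf21, a hormone of fasting and metabolic stress, was at 1.17 FPKM in Lbr-knockout and 0.69 in Lmna-knockout myoblasts, against 0.17 and 0.95 in the wild types of the Lbr and the Lmna litter. These Fgf21 values stand for about 2.81 to 14.7 fragments, the lowest from the uncertain estimate for the wild type of the Lbr litter. The mean of Fgf21 was below 1 FPKM, and it enters no comparison below.

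**Figure D1:**
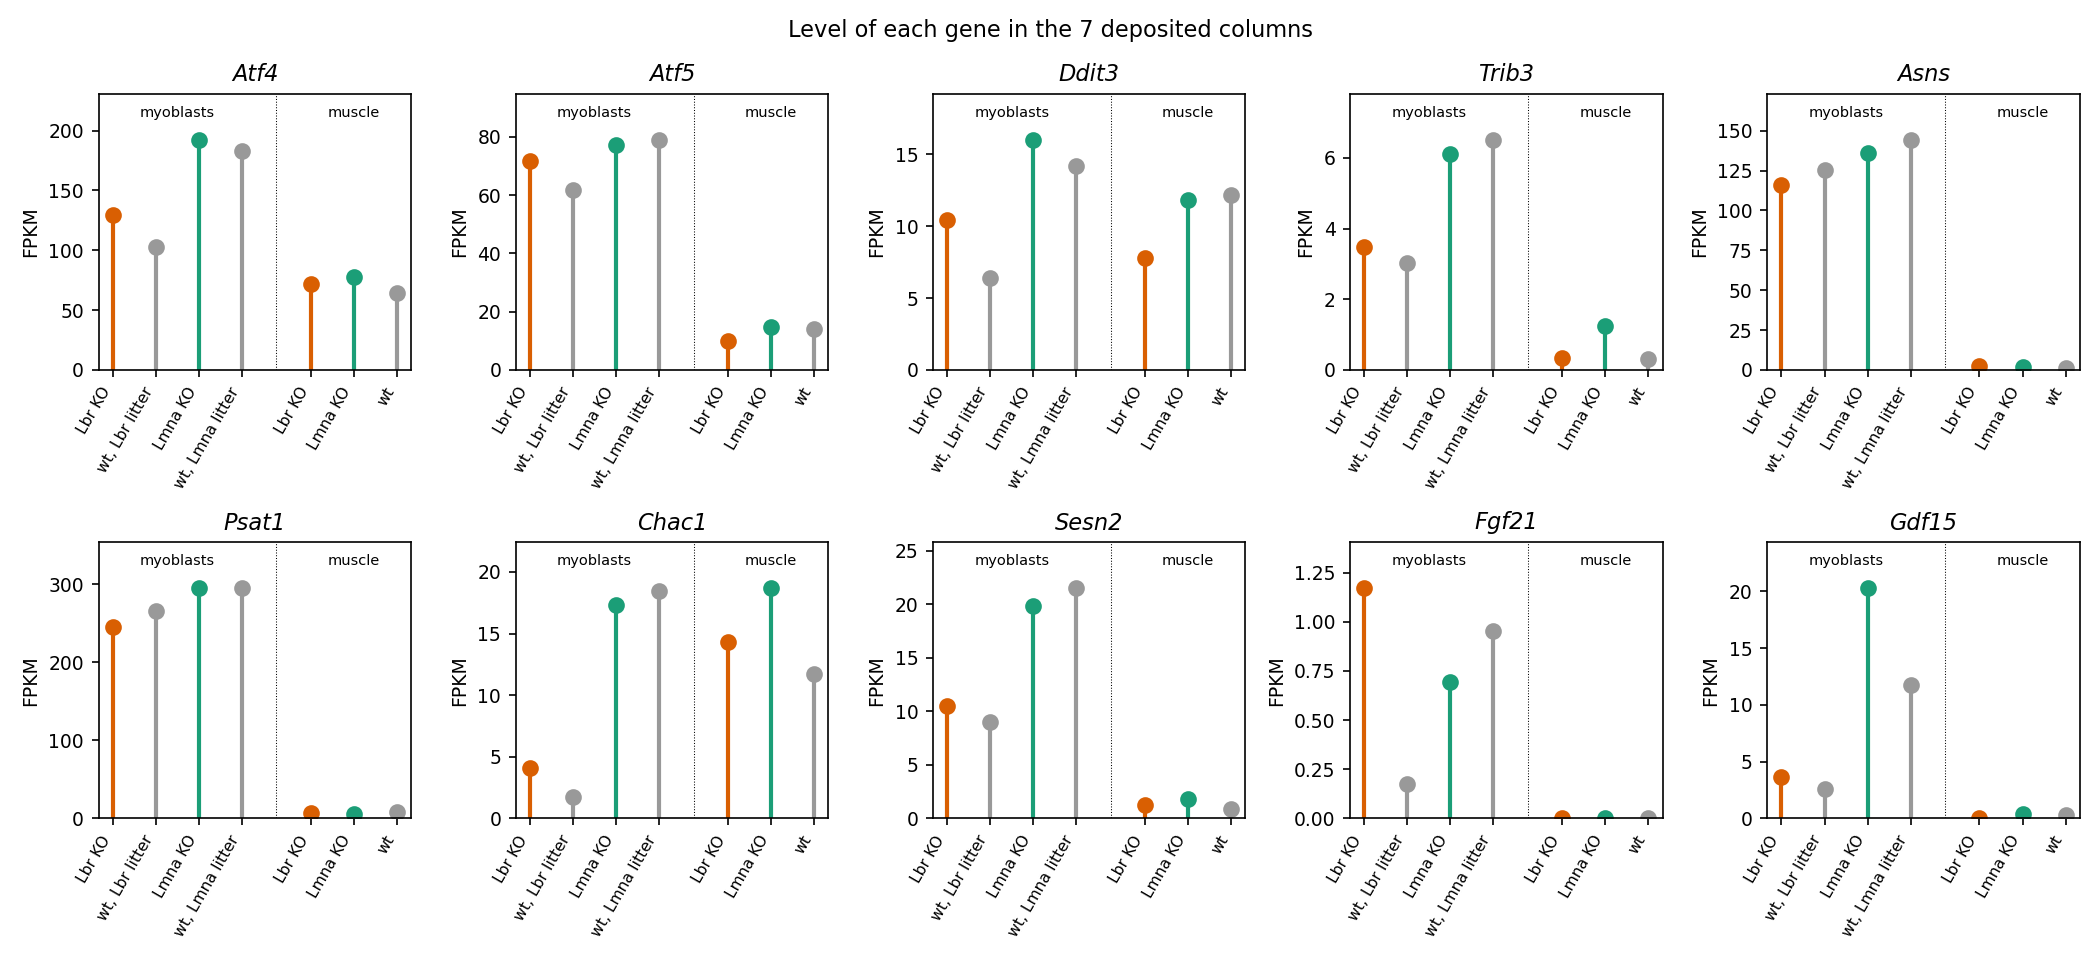
Level of each of the 10 genes in FPKM (y axis, linear and from 0, a separate scale per gene) in the 7 deposited columns, 4 of myoblasts and 3 of muscle, a point on a stem for each column. Chac1, Sesn2, Trib3 and Gdf15 have a low pair of myoblast columns (Lbr knockout and wild type of the Lbr litter) and a high pair (Lmna knockout and wild type of the Lmna litter), and Asns and Psat1 are nearly level in myoblasts and low in muscle.

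None of the stress genes differed 2-fold from both wild-type myoblast columns in either knockout. Differences are given as log2(FPKM + 1), knockout minus wild type, over genes that averaged 1 FPKM or more in the myoblast columns, and a gene was called only where it was at least 2-fold higher, or lower, than both wild types. In Lbr-knockout myoblasts 0 of 9 members were called, beside 0.532% of all 11457 genes compared. In Lmna-knockout myoblasts 0 of 9 were called, beside 0.646% of 11455 genes.

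Against the wild type of its own litter, the Lbr knockout differed most in Chac1, by a log2 value of 0.92, and in Ddit3, by 0.63. The median over the 9 members was 0.22, against 0.05 over all genes. Set against the wild type of the Lmna litter, the signs turned: Chac1 was lower by a log2 value of -1.93 and Gdf15 by -1.45, and the median was -0.50, against -0.01 over all genes. The Lbr-knockout value lay between the 2 wild types in 7 of the 9 members, beside 45.7% of all genes. Asns and Psat1 lay below both wild types, by log2 values of -0.11 to -0.31, 2 of 9 members beside 22.4% of all genes.

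The Lmna knockout was close to the wild type of its own litter in every compared member but Gdf15, which was higher by a log2 value of 0.74. The other 8 differences ran from -0.11 for Sesn2 to 0.16 for Ddit3, and the median was -0.03, against 0.04 over all genes. Against the wild type of the Lbr litter all 9 were higher, Chac1 by a log2 value of 2.76, Gdf15 by 2.56, Ddit3 by 1.2 and Sesn2 by 1.06, with a median of 0.90, against 0.10 over all genes. As means over both wild types, Asns and Psat1 differed in the Lmna knockout by log2 values of 0.015 and 0.07 as deposited. After quantile normalization these means were -0.17 and -0.15. Atf4, Ddit3 and Gdf15 lay above both wild types, 3 of 9 members, beside 42.4% of all genes. All 9 members were nearer to the wild type of the own litter than to the other, beside 77.4% of all genes. In the Lbr knockout 7 of 9 were, beside 65.9%, the exceptions being Ddit3 and Atf5.

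**Figure D2:**
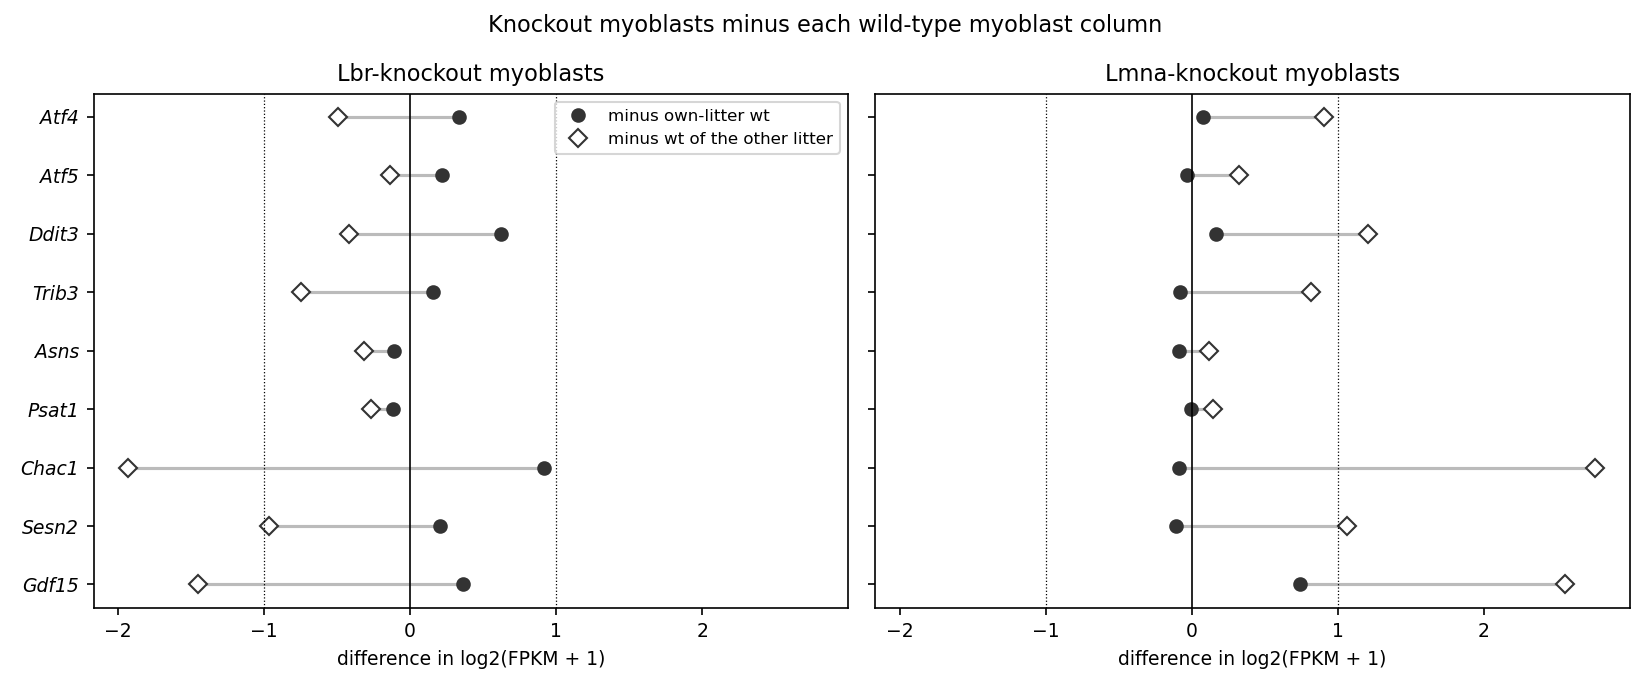
Difference in log2(FPKM + 1) (x axis) between each knockout myoblast column and the wild type of its own litter (filled circles) or of the other litter (open diamonds), for the 9 compared genes (y axis), with dotted lines at a 2-fold difference. In no gene are both marks past the same dotted line, and for Chac1 the marks lie 2.85 apart on the log2 scale in both panels.

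A fit over the 4 myoblast columns with limma treats the 2 wild types as 1 group. Their spread is taken to hold for the knockouts too. With 25.8 prior and 1 residual degrees of freedom, most of the weight in a gene's error goes to that spread over all genes. The gene's own distance between the litters has little weight, but adds much to the error where it is wide, as for Chac1 and Gdf15. The fit has 1 column per knockout. Its p-values therefore cannot separate a knockout from its litter and do not test a knockout effect within a litter. No member had an adjusted p under 0.05 in either knockout. In the Lbr knockout none of the 9 members had an unadjusted p under 0.05 either, among 341 of 11447 genes, and 37 genes passed the adjusted threshold, 0.28% of all genes higher and 0.0437% lower. In the Lmna knockout Gdf15 was higher by a log2 value of 1.65 with a standard error of 0.44, with an adjusted p = 0.146 by limma with Benjamini-Hochberg adjustment. For Chac1 the value was 1.34 with a standard error of 0.57 and an adjusted p = 0.9997 in the same limma fit. These were the only members with an unadjusted p under 0.05. In that knockout 404 genes had an unadjusted p under 0.05 and 47 passed the adjusted threshold, 0.21% of all genes higher and 0.201% lower. The Gdf15 call depended on the settings: its adjusted limma p ranged over the alternatives between 0.000437 (a filter of 5 FPKM) and 0.348 (pseudocount 0.1), and it was 0.00945 with a pseudocount of 5. Chac1 had an adjusted p of 0.017 in the first of these limma alternatives. Against the wild type of its own litter, Chac1 in this knockout differed by a log2 value of only -0.09.

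The larger differences lay between the litters. In wild-type myoblasts, all 9 compared members were lower in the Lbr litter than in the Lmna litter as deposited (7 after quantile normalization, which puts Asns at 0.01 and Psat1 at 0.07), and Chac1, Gdf15, Sesn2 and Ddit3 were lower by 2-fold or more. Chac1 differed by a log2 value of -2.85, Gdf15 by -1.82, Sesn2 by -1.17 and Ddit3 by -1.04. That is 4 of 9 members at 2-fold or more, beside 2.03% of the 11504 genes compared. The Ddit3 value falls short of 2-fold once the columns are centred on their medians or quantile normalized. Trib3, at -0.90, Atf4, at -0.83, and Atf5, at -0.35, followed, while Asns and Psat1 were at -0.20 and -0.15. The median of the members was -0.90, against -0.07 over all genes, of which 57.5% were below 0.

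The knockout columns, which come from other libraries than the wild types, differed in the same direction. Lbr-knockout myoblasts were lower than Lmna-knockout myoblasts in all 9 members as deposited (6 after quantile normalization, which puts Asns at 0.003, Psat1 at 0.02 and Atf5 at 0.04), with Gdf15 at a log2 value of -2.19 and Chac1 at -1.84, the only members past 2-fold, beside 1.32% of 11466 genes. Sesn2 was at -0.86, Trib3 at -0.66, Ddit3 at -0.58 and Atf4 at -0.57, Psat1 at -0.26, Asns at -0.23 and Atf5 at -0.10. The median was -0.58, against -0.04 over all genes, of which 54.2% were below 0.

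Chac1 and Gdf15 were at least 2-fold lower on the Lbr side in the knockout pair and in the wild-type pair, 2 of 9 members, beside 0.341% of the 11447 genes in both pairs. A lower value of any size in both pairs was found in 9 of 9 members as deposited, beside 44.9% of these genes, and in 6 after quantile normalization (Atf4, Ddit3, Trib3, Chac1, Sesn2 and Gdf15). Ordered from the most negative difference, Gdf15 was number 3 and Chac1 number 9 of 11447 genes in the knockouts, and Chac1 was number 3 and Gdf15 number 37 in the wild types. The enzyme genes stood far down the same order, with Asns at 3576 and Psat1 at 3189 in the knockouts and 4106 and 4724 in the wild types. Litter, culture and, for the knockouts, the deleted gene cannot be told apart in these pairs, and the wild-type side is 1 library against 1. Macrophage markers also differed between the wild types, with 11 of 12 at least 2-fold lower in the Lbr litter and a median log2 value of -1.78. Between the knockouts their median was 0.26 and 0 of 12 were past 2-fold. Differentiated muscle markers were higher in Lbr-knockout than in Lmna-knockout myoblasts, with a median log2 value of 3.17 over 6 compared genes, but lower in the wild type of the Lbr litter than in that of the Lmna litter, with a median of -1.02. The part of either cell type in the stress gene values was not tested.

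**Figure D3:**
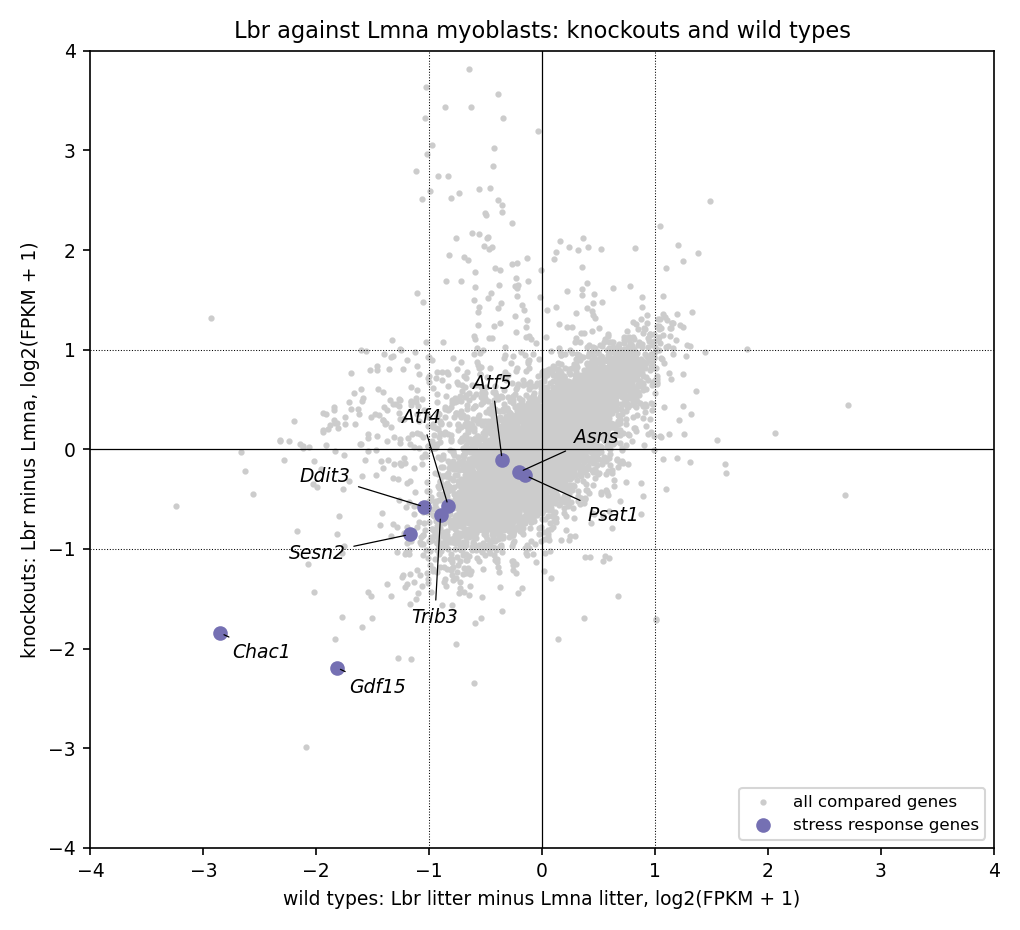
Difference between Lbr and Lmna in log2(FPKM + 1) for the 11447 compared genes (grey) and the 9 stress response genes (purple), in wild-type myoblasts (x axis, Lbr litter minus Lmna litter) and in knockout myoblasts (y axis, Lbr knockout minus Lmna knockout), with dotted lines at 2-fold. The 9 genes all lie in the lower left part (after quantile normalization Asns, Psat1 and Atf5 do not), Chac1 and Gdf15 past 2-fold on both axes, and many other genes also lie along the rising diagonal.

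The wider pathway was counted with lists of related genes. No gene of these pathway lists was 2-fold from both wild types in either knockout myoblast column. Of all genes, 0.532% were in the Lbr knockout and 0.646% in the Lmna knockout. Between the litters, the medians of the 10 lists with at least 7 compared genes ran from -0.37 (p53 targets) to 0.19 (mTOR inhibitors and redox targets) in the knockouts, and from -0.37 (p53 targets) to 0.08 (mitochondrial chaperones and proteases) in the wild types, against -0.04 and -0.07 over all genes. The list of eIF2 kinases and their machinery, 14 genes, had a median log2 value of -0.04 between the knockouts, Lbr minus Lmna, and of 0.00 between the wild types. Aminoacyl-tRNA synthetases charge transfer RNAs and are classic ATF4 targets. Their list of 13 genes, which includes the tRNA export gene Xpot, had medians of -0.07 between the knockouts and 0.05 between the wild types. Amino acid transporters, 10 genes, had medians of -0.20 and -0.06 in these 2 pairs. The serine, glycine and one-carbon list was at -0.15 and -0.17, with 7 of 8 genes below 0 in each pair. The other amino acid synthesis list was at -0.22 and -0.17 over 8 genes, the ATF4 partners and related bZIP factors were at -0.18 and -0.27 over 7, and the mTOR and redox list at 0.19 and -0.23 over 10. Of all pathway genes, 1 of 102 compared was past 2-fold between the knockouts, beside 3.34% of all genes in either direction. Between the wild types 0 of 103 were, beside 2.71% of all genes.

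The list of p53 targets stood lower, at a median of -0.37 in the knockout pair and -0.37 in the wild-type pair over 10 compared genes. Phlda3, which restrains AKT signalling, was its only called gene, at 48.0 FPKM in Lbr-knockout and 98.8 in Lmna-knockout myoblasts, a log2 difference of -1.03. In the wild types of the Lbr and the Lmna litter it was at 44.5 and 83.4 FPKM, a difference of -0.89. Of the p53 targets, 7 of 10 were below 0 between the knockouts, beside 54.2% of all genes, and 9 of 10 between the wild types, beside 57.5%. Pdia6, a chaperone of the endoplasmic reticulum, was left out of the myoblast knockout comparisons because it was listed at 0 in both knockout columns, against 135 FPKM in the wild type of the Lbr litter and 156 in that of the Lmna litter, and such a 0 can be a failed estimate.

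**Figure D4:**
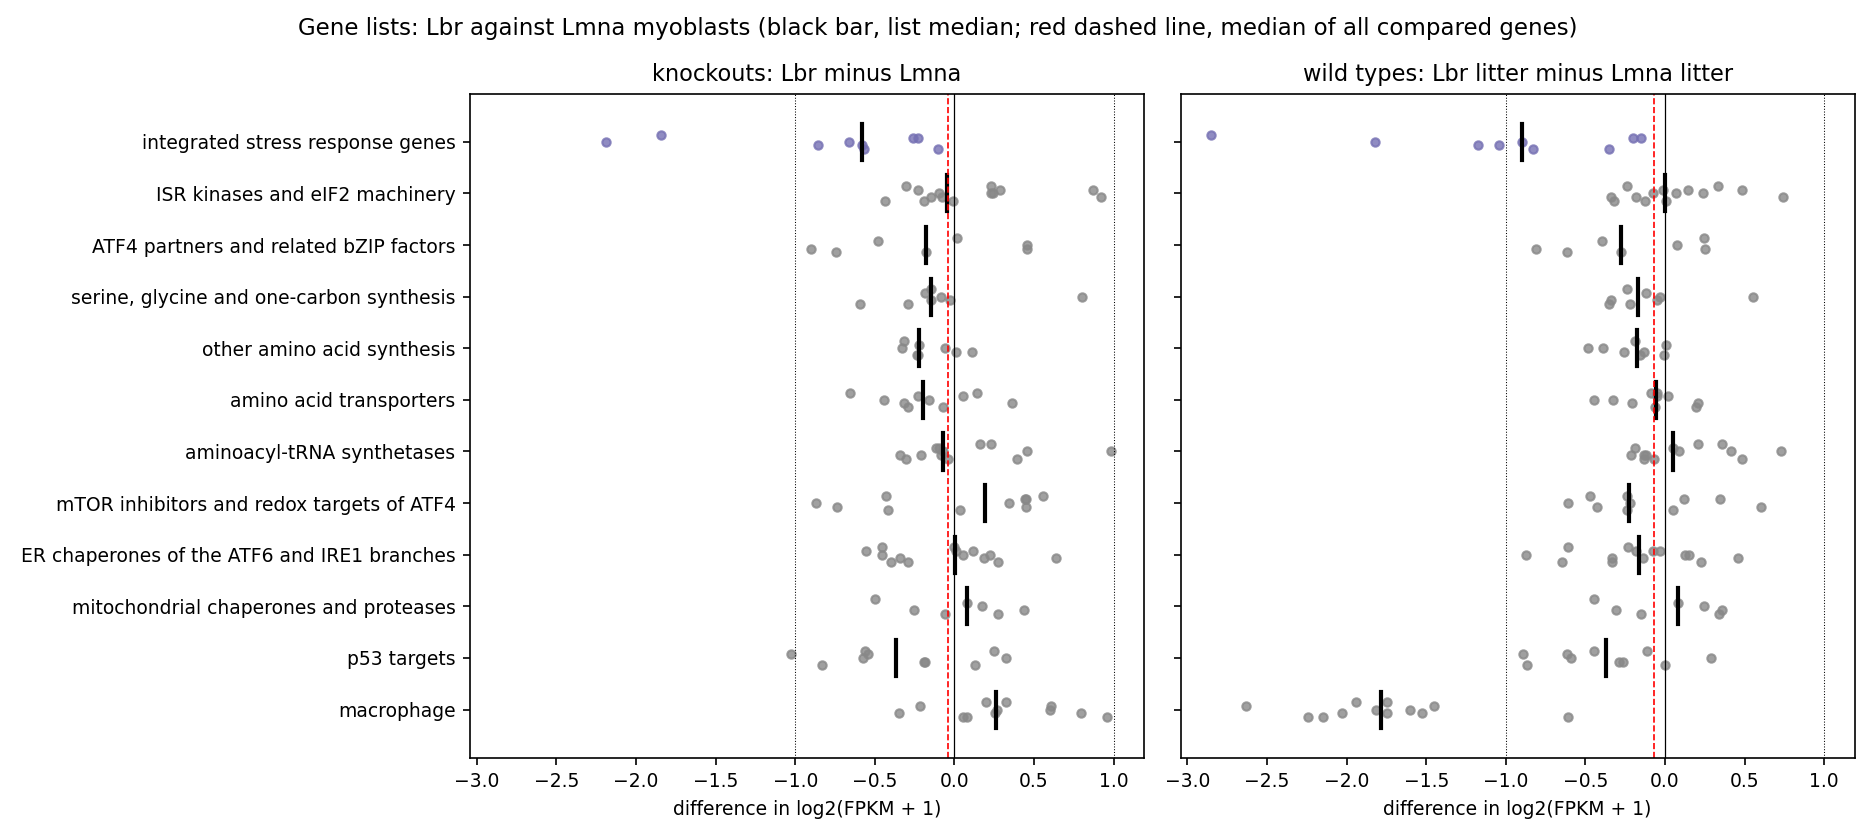
Difference in log2(FPKM + 1), Lbr minus Lmna, in knockout myoblasts (left) and in wild-type myoblasts (right), a point for each compared gene of the lists named on the y axis, with the list median as a black bar, the median of all compared genes as a red dashed line and dotted lines at 2-fold. The stress response genes reach the lowest values of the gene lists on the left, and on the right the macrophage markers have the lower median, -1.78 against -0.90.

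In striated muscle most members were lower than in myoblasts, and the 7 members compared stayed within 2-fold of the wild type on the log2(FPKM + 1) scale. In plain FPKM the low genes Sesn2 and Trib3 exceeded it, with spans of 2.11 and 3.98 times over the muscle columns. By the fragment estimate, Sesn2 stood at only about 13.7 fragments in Lbr-knockout, 11.7 in Lmna-knockout and 12.2 in wild-type muscle. The estimates for Lmna-knockout and wild-type muscle are uncertain. Atf4 was at 72.2 FPKM in Lbr-knockout and 77.5 in Lmna-knockout muscle, against 64.2 in wild-type muscle. Atf5 was at 10.04 and 14.6 FPKM in Lbr-knockout and Lmna-knockout muscle, against 14 in wild-type muscle. Ddit3 was at 7.79 FPKM in Lbr-knockout and 11.8 in Lmna-knockout muscle, against 12.2 in wild-type muscle. The Lbr knockout was thus the lowest column for both Atf5 and Ddit3.

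Chac1 was at 14.3 FPKM in Lbr-knockout and 18.7 in Lmna-knockout muscle, against 11.7 in wild-type muscle. Sesn2 was at 1.22 and 1.81 FPKM in Lbr-knockout and Lmna-knockout muscle, against 0.86 in wild-type muscle. For these members, as for Atf4, the wild type was the lowest column in FPKM and the Lmna knockout the highest, for Sesn2 on few fragments. Asns was at 2.69 FPKM in Lbr-knockout and 1.67 in Lmna-knockout muscle, against 1.45 in wild-type muscle, and Psat1 was at 7.56 and 5.26 FPKM in the knockouts in that order, against 8.22 in wild-type muscle. Trib3 was at 0.33 and 1.24 FPKM in Lbr-knockout and Lmna-knockout muscle, against 0.31 in wild-type muscle. Gdf15 was listed at 0 in Lbr-knockout muscle and was at 0.43 FPKM in Lmna-knockout muscle, against 0.29 in wild-type muscle. Fgf21 was listed at 0 in all 3 muscle columns.

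With Trib3, Gdf15 and Fgf21 below the expression limit in muscle, 7 members were compared. In Lbr-knockout muscle 0 of 7 were 2-fold from the wild type, beside 1.56% of 12080 genes, and the log2 differences ran from -0.58 for Ddit3 to 0.59 for Asns, with a median of 0.17, against 0.10 over all genes. In Lmna-knockout muscle 0 of 7 were, beside 2.69% of 12068 genes, and they ran from -0.56 for Psat1 to 0.63 for Chac1, with a median of 0.12, against 0.13 over all genes. Both knockouts share the wild-type column. Set directly against each other, Lbr-knockout minus Lmna-knockout muscle, 0 of 7 members were past 2-fold, beside 1.49% of 12069 genes. The lower pair of values seen for Chac1 in myoblasts of the Lbr litter had no counterpart of 2-fold in muscle, where the knockouts differed by a log2 value of -0.37. With single columns per group, no test of these differences was possible.

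**Figure D5:**
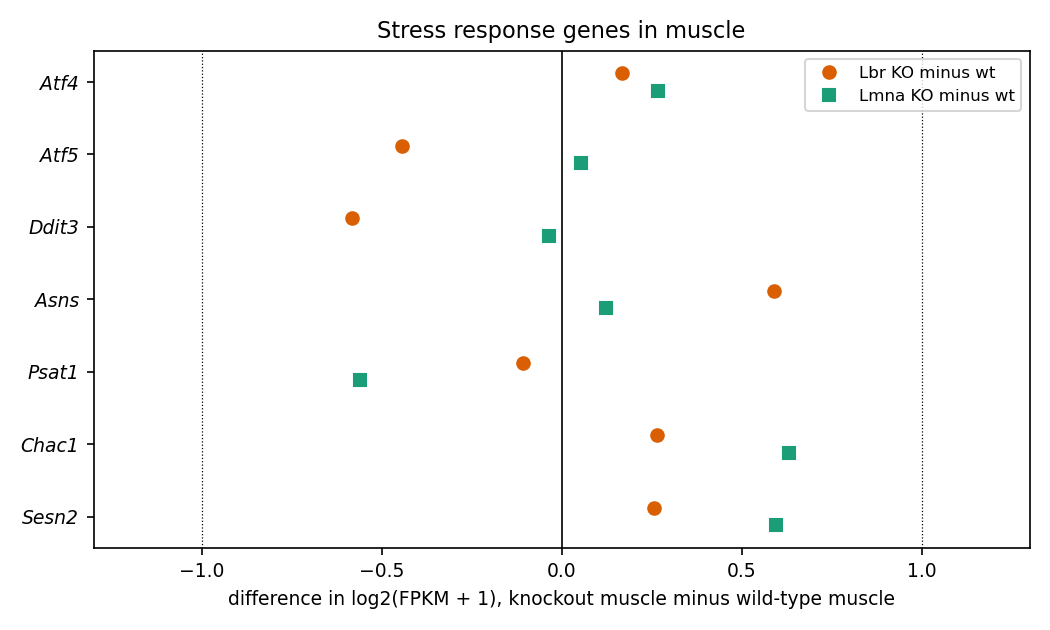
Difference in log2(FPKM + 1) between knockout and wild-type muscle (x axis) for the 7 compared genes (y axis), with Lbr knockout as orange circles and Lmna knockout as green squares, both against the same wild-type column. All 14 points lie within the dotted lines at a 2-fold difference.

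Of the other pathway genes, 1 of 101 compared was past 2-fold in Lbr-knockout muscle and 4 of 101 in Lmna-knockout muscle, beside the 1.56% and 2.69% of all genes, so the lists stand near the background. Atf3, a stress-induced bZIP transcription factor, was at 3.86 FPKM in Lbr-knockout muscle, against 11.5 in wild-type muscle, a log2 difference of -1.36, and at 10.6 FPKM in Lmna-knockout muscle. In Lmna-knockout muscle Cdkn1a, the p53-induced cell cycle inhibitor p21, was at 22.1 FPKM, against 4.33 in wild-type muscle, a difference of 2.12. Sesn1, a sestrin related to Sesn2, was at 61.9 FPKM in Lmna-knockout muscle, against 27.3 in wild-type muscle, a difference of 1.15, and Glul, glutamine synthetase, was at 72.7 FPKM, against 28.2, a difference of 1.33. Stbd1, a glycogen-binding protein, was lower, at 9.03 FPKM in Lmna-knockout muscle, against 23.6 in wild-type muscle, a difference of -1.3. The 12 macrophage markers summed to 138 FPKM in Lbr-knockout and 130 in Lmna-knockout muscle, against 95 in wild-type muscle, and their part was not tested.

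Between the tissues, the enzyme genes carried the largest differences of the members. In wild-type muscle Asns was at 1.45 FPKM, against 126 and 144 FPKM in the wild-type myoblasts of the Lbr and the Lmna litter, log2 differences of -5.69 and -5.89. Psat1 was lower by log2 values of -4.86 and -5.01. Of the 9 members compared, 6 were at least 2-fold lower in wild-type muscle than in both wild-type myoblast columns (Asns, Psat1, Sesn2, Atf5, Trib3 and Gdf15), beside 31.9% of all 12145 genes. Centring on medians leaves 5 of these, without Gdf15, and a pseudocount of 5 leaves 4, without Gdf15 and Trib3. None was higher than both by 2-fold, beside 15.7%. The median of all genes was itself at -0.52 against the Lbr litter and -0.55 against the Lmna litter, and the members' medians were -1.62 and -2.52. Chac1 and Ddit3 in muscle lay between the wild-type myoblast columns, and Chac1 was higher than the Lbr litter by a log2 value of 2.23 and lower than the Lmna litter by -0.62.

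Other lists of amino acid supply were mostly lower in wild-type muscle as well, with exceptions. All 10 amino acid transporters were at least 2-fold lower, beside 31.9% of all genes. So were 11 of 13 genes of the aminoacyl-tRNA synthetase list, which includes the tRNA export gene Xpot. In serine, glycine and one-carbon synthesis 6 of 8 genes were lower. In other amino acid synthesis, 4 of 8 genes were lower and 3 were higher (Got2, Gpt2 and Glul), beside 31.9% and 15.7% of all genes. The cytosolic serine enzyme Shmt1 was higher too. Glul was at 28.2 FPKM in wild-type muscle, against 9.15 and 12.3 in wild-type myoblasts of the Lbr and the Lmna litter. Slc7a5, a transporter of large neutral amino acids, was at 2.50 FPKM in wild-type muscle, against 69.8 and 80.9 in wild-type myoblasts of the Lbr and the Lmna litter. Mthfd2, a mitochondrial folate enzyme, was at 2.18 FPKM, against 54.5 and 63.5. In the list of endoplasmic reticulum chaperones, which also holds the regulators Xbp1, Atf6 and Ern1, 11 of 15 genes were lower, beside the same 31.9%. Myoblast and muscle libraries were made with different NuGEN kits, Ovation for myoblasts and the complete protocol for muscle, so that kit and tissue cannot be told apart. The myoblast markers themselves, 5 of 5 compared, were at least 2-fold higher in wild-type muscle than in both wild-type myoblast columns, beside 15.7% of all genes. The part of the cell types present in the cultures was not tested.

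Over all 7 columns, the genes whose log2 values followed the mean of 9 members most closely were Gm16515, with a Pearson r of 0.997, Tmem50b and Tmem132a, each with 0.995, Tmem106a, with 0.993, and Ccndbp1, with 0.992. For Atf4 alone they were Ccndbp1 and Gm16515, each with 0.997, Adam15, with 0.995, Hexa, with 0.994, and Usp30, with 0.993. Ccndbp1, for example, was at 16.1 FPKM in Lbr-knockout and 22.2 in Lmna-knockout myoblasts, against 13.7 and 21.3 in the wild types of the Lbr and the Lmna litter, and at 8.42 to 9.71 FPKM in muscle. These are the highest of 12454 genes over only 7 columns, which share the split by tissue and kit, and they are given as a description.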

How the data were processed

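Total RNA was sequenced from 12 samples, and the authors deposited a single table of FPKM values with 1 column for each of 7 groups and no counts. Per the submitters' processing notes, the build was mm9. Not given in the sources used here are the aligner, quantification tool, annotation, strand setting and how 2 samples became 1 column. Column names gave the group of all 7 columns, and 0 value columns were unmatched.

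The 10 members and the gene lists (11 pathway and 7 marker lists, all symbols found) were chosen with earlier results of these data known. Named genes were all members, up to 4 called genes of each pathway list per comparison, the 5 most alike genes, Lbr and Lmna. Pdia6, Xist, Ddx3y, the pathway and marker sums and the tissue examples Slc7a5, Mthfd2, Got2, Gpt2, Glul and Shmt1 were named after their values were seen, as were the comparisons between litters, the positions relative to both wild types and the span of the columns.

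Differences were taken on log2(FPKM + 1), which understates changes of low genes. Genes needed a mean of 1 FPKM in the compared tissue, and those listed at 0 in a compared column were left out. A 2-fold difference stood in for a test, as planned tests on replicates were not possible. limma 3.58.1 in R 4.3.3, with a variance trend, fitted the 4 myoblast columns with 25.8 prior and 1 residual degrees of freedom. Its p-values rest only on the spread between 2 wild-type libraries, with most weight on that spread over all genes. Fragment numbers were estimated from genes with a single GENCODE M21 transcript, and cover counting only. The limma fit and the 2-fold rule alone were tried on simulated data. There the wild types differed only by noise, so that trial does not cover gaps between litters such as those seen here. Python 3.11.15 with pandas 2.3.3 and numpy 2.4.6 was used. Alternatives were pseudocounts of 0.1 and 5, no filter or 5 FPKM, centring, quantile normalization, a 1.5-fold call, genes at 0 kept, and each wild type alone.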

Additional observations from a re-analysis of the deposited data

How the results depend on the processing

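No paired analysis was possible because the table has a single column per group with no replicate numbers, and leaving out replicates could not be run within a group. No called difference of a member changed direction in the alternatives run. With the other litter's wild type alone, 2 members were called in Lbr-knockout myoblasts (Chac1 and Gdf15, lower), beside 241 of all 11463 genes. In Lmna-knockout myoblasts 4 were called (Ddit3, Chac1, Sesn2 and Gdf15, higher), with the count over all genes given below. The own litter's wild type alone gave 0 members in each. At a 1.5-fold limit, 1 member was called in Lmna-knockout myoblasts (Gdf15), 1 in Lbr-knockout muscle (Asns), 2 in Lmna-knockout muscle (Chac1 and Sesn2), 4 between Lbr-knockout and Lmna-knockout myoblasts and 4 in both pairs of the litters (Trib3, Chac1, Sesn2 and Gdf15 each time). Far more of all genes were called at this limit as well, with counts given below except for Lmna-knockout myoblasts. A pseudocount of 5, which shrinks low genes, left 2 of the 4 members between the wild types (Chac1 and Gdf15) and 2 of the 4 with a 2-fold span of the myoblast columns. The limma calls in Lmna-knockout myoblasts, Gdf15 with a pseudocount of 5 and Chac1 and Gdf15 with a filter of 5 FPKM, came with larger prior degrees of freedom. These were 59.2 with that pseudocount and infinite with that filter, against 25.8 in the main fit and 18.8 with a pseudocount of 0.1. At an infinite prior a gene's own spread between the wild types does not enter its error. The part of the prior in these calls was not tested further. Of the counts of called members, 81 stayed within 1.5 times and 11 moved further. Of the values of single members, 578 of 588 moved by less than 1.5-fold or the spread between the wild types and 10 moved further, and 15 values changed sign, none of them called. With 1 wild type alone, 13 of 36 values changed sign, none of them called.

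Counts over all genes moved more. Lbr-knockout myoblasts had 61 called genes, between 18 (pseudocount 5) and 298 (own wild type alone), and Lmna-knockout myoblasts 74, between 21 (pseudocount 5) and 518 (other wild type alone). Lbr-knockout muscle had 189, between 48 (pseudocount 5) and 832 (1.5-fold), and Lmna-knockout muscle 325, between 98 and 1516 under the same 2 settings. Between the myoblast knockouts there were 383, between 134 and 1873, between the wild types 312, between 93 and 1616, and in both pairs 77, between 19 and 789, again for a pseudocount of 5 and a 1.5-fold limit. Depth limits Fgf21, Trib3 and Gdf15 in muscle, all below or near 1 FPKM. It also limits Sesn2, at 0.86 to 1.81 FPKM, and Asns, at 1.45 to 2.69 FPKM in the muscle columns.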
